A study of Mus musculus with 12 samples.

Results

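The effect of MYC on mouse liver RNA was set against the effect of 4 weeks of YAP, gene by gene. For each gene, the log2 fold change of 4-week YAP livers over YAP controls was subtracted from that of MYC livers over MYC controls. The result is called the difference here: above 0, MYC livers stood higher against their controls than YAP livers did against theirs. The 10 libraries of those 4 groups were used out of 12 in the series, without the 2-week YAP livers, and 17644 of 48576 listed genes had enough counts to be tested. All 10 are total RNA of whole liver, although the labels give hepatocytes as the cell type. YAP livers (n = 3) came from Col-TRE-YAPS127A; Rosa26-LSL-rtTA mice that had received AAV-TBG-Cre at an age of 8 to 10 weeks and then 4 weeks of doxycycline, which turns on YAPS127A, a form of YAP that escapes phosphorylation by the Hippo kinases. YAP controls (n = 2) had the same genotype and are recorded with the same age at AAV-TBG-Cre, 8 to 10 weeks, with YAPS127A left uninduced. MYC livers (n = 3) came from LAP-tTA; TRE-MYC mice, in which doxycycline holds the transgene off. Their mothers had doxycycline taken away at about embryonic day 8, and the series text puts liver collection at 4 weeks after birth. MYC controls (n = 2) carried LAP-tTA without TRE-MYC on the same doxycycline schedule. The TBG and LAP promoters are active mainly in hepatocytes, and in which cells the transgenes were expressed was not tested. Model, age, promoter and length of induction all differ between both effects and cannot be told apart from the choice of oncogene. The labels do not say which libraries came from littermates, and p-values measure the spread between these livers only.

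YAP is a transcriptional co-activator that the Hippo kinases keep out of the nucleus. In the nucleus it binds DNA through TEAD factors, and in liver its activity is known for organ overgrowth and for turning hepatocytes toward bile duct features. MYC pairs with MAX on E-box sequences and is known for raising ribosome production, nucleotide synthesis and cell cycle entry. Both are used in mice to produce liver tumours.

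The 5 promoter stretches below come from genes treated in the following paragraphs whose difference was called below 0, and each was picked because it holds 1 of the motifs of these factors. Capitals mark the TEAD motif GGAATG, or CATTCC where it lies on the other strand, in Cyr61, Ptpn14 and Pkd2, and the E-box CACGTG in Tgfb2 and Fgf21. Each is the 150 bases before the start site, 5′ to 3′, from RefSeq on GRCm38.p6.
Cyr61 (RefSeq symbol Ccn1), chr3:145649986-145650135, minus strand: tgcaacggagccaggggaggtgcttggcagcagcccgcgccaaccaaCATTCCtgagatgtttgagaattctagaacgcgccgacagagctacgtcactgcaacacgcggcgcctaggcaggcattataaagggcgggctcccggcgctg
Ptpn14, chr1:189728118-189728267, plus strand: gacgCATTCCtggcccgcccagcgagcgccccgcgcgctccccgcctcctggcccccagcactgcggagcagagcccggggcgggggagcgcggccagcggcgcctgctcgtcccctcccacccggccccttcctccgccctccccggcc
Pkd2, chr5:104459307-104459456, plus strand: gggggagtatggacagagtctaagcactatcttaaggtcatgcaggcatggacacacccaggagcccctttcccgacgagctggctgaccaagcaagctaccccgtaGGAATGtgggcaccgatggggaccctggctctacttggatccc
Tgfb2, chr1:186705990-186706139, minus strand: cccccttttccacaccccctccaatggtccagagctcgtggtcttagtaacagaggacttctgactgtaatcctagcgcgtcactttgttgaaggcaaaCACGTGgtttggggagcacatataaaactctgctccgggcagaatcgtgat
Fgf21, chr7:45615491-45615640, minus strand: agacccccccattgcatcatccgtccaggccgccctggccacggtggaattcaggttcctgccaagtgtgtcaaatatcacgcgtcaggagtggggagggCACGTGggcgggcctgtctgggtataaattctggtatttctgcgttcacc
Over all 32851 RefSeq windows of 300 bases (250 before to 50 after the start), 7.15% held the E-box and 14.7% the TEAD motif on either strand. Both are short and do not overlap each other in sequence. Promoters were matched by symbol for 11893 of the 17644 tested genes, 67.4%. Motif shares were computed for groups of genes as well, but with so many genes lacking a promoter that check is void and nothing is read from it.

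Totals lay between 12511170 and 17690798 counts per library. Hepatocyte markers matched the tissue label in every library, with Alb, the main plasma protein of hepatocytes, between 11800 and 66500 CPM (gene counts relative to the library's total after trimmed-mean scaling, the unit of all levels below). Xist, the RNA that coats the silenced X chromosome of females, lay between 1880 and 2370 CPM in the 4-week YAP livers and between 0.935 and 10.2 CPM in the other 7. Ddx3y, a Y-linked helicase gene, lay between 0.0632 and 0.279 CPM in the 4-week YAP livers and between 111 and 154 CPM elsewhere. Sex and YAP induction therefore cannot be told apart. Mitochondrial genome transcripts took 19.3% to 19.6% of counts in YAP controls, 7.67% to 11.7% in 4-week YAP livers, 15% to 15.8% in MYC controls and 15.1% to 20.8% in MYC livers. The first replicate stood apart in both induced groups. Chi-square per degree of freedom was 107 and 87.5 between 4-week YAP replicate 1 and the other two, against 20.7 between those, and 75.9 and 103 for MYC replicate 1, against 36.7.

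Neither targeted gene passed the test of the difference. Yap1 lay at 84.3 and 79.5 CPM in YAP controls, 85.3, 65 and 69.2 in 4-week YAP livers, 71.3 and 71.7 in MYC controls and 50.7, 45.4 and 57.1 in MYC livers. Its log2 difference was -0.32 ± 0.23 (SE; adjusted p = 0.422, edgeR quasi-likelihood test with Benjamini-Hochberg adjustment over all tested genes, as for every adjusted p here). Myc lay at 51.9 and 8 CPM in YAP controls, 117, 64.2 and 112 in 4-week YAP livers, 15 and 6.56 in MYC controls and 31.3, 23 and 22 in MYC livers. All 3 MYC livers lay below all 3 YAP livers, with a log2 difference of -0.46 ± 0.94 (adjusted p = 0.817). That sign turned without YAP control replicate 2 or MYC control replicate 1. The labels do not give the species of either transgene, and whether its reads count toward these rows was not tested, so neither row checks the induction.

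Of the 17644 genes, 1198 were called in the difference at an adjusted p under 0.05, which is 6.79%. The difference was above 0 in 532 (3.02%) and below 0 in 666 (3.77%), and 1114 of the calls (93%) were at least 2-fold. At an unadjusted p under 0.05 there were 4314. Among the 532 above 0, YAP alone had a called fall in 330 and MYC alone a called rise in 110. A further 45 rose with MYC and fell with YAP, 31 fell in both models, 10 rose in both and 6 were called in neither effect. Among the 666 below 0, YAP alone had a called rise in 440 and MYC alone a called fall in 96. Another 77 rose with YAP and fell with MYC, 36 rose in both, 6 fell in both and 11 were called in neither. Most genes called in the difference were called in the YAP effect alone. The YAP effect also had more calls over all tested genes, 5876 against 3149 for MYC. Nothing particular to the genes moved apart is therefore read from that majority.

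MYC raised 1758 genes (9.96%) and lowered 1391 (7.88%), and 4 weeks of YAP raised 3238 (18.4%) and lowered 2638 (15%). Both effects rose in 866 genes, 49.3% of the MYC rises and 26.7% of the YAP rises. Both fell in 754, 54.2% of the MYC falls and 28.6% of the YAP falls. Of these, 820 rises and 717 falls were not called in the difference and are called shared below. Across tested genes, Pearson's r between both effects was 0.46 and Spearman's rho 0.46, where genes are not independent replicates and both effects come from 1 fit with 1 scaling. The 2 effects share no library.

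The counts depended on single libraries. Leaving out MYC control replicate 2 left 235 calls in the difference, MYC control replicate 1 365, YAP control replicate 2 403, YAP control replicate 1 430, 4-week YAP replicate 3 586 and MYC replicate 2 788. Without 4-week YAP replicate 1 there were 1904, and without both first replicates of the induced groups 3045, of which 1186 were among the original 1198. In total 201 genes, 63 above and 138 below 0, stayed called whichever of the 10 libraries was left out, and genes printed without a remark below are among them. This holds for the difference alone: where a gene is said to rise or fall in 1 model, that single effect could still depend on a library, which is given for genes with opposite effects. All 1198 kept their sign in every one of these fits. They were chosen by passing in the full fit, whose libraries these fits reuse, so kept signs are no independent check. Scaling to total counts moved the median difference over all genes from -0.06 to -0.38 and the calls to 268 above and 1159 below 0, so 18.8% of calls lay above 0 in place of 44.4%.

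The control groups also differed from each other, by at least 2-fold in 378 of the 1198 called genes (31.6%) and in 22.9% of all tested genes. In 943 of the 1198 (78.7%) the gap between MYC and YAP livers was larger than the gap between their controls. That share was not computed over all tested genes, so nothing is read from it about where the calls come from.

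**Figure D1:**
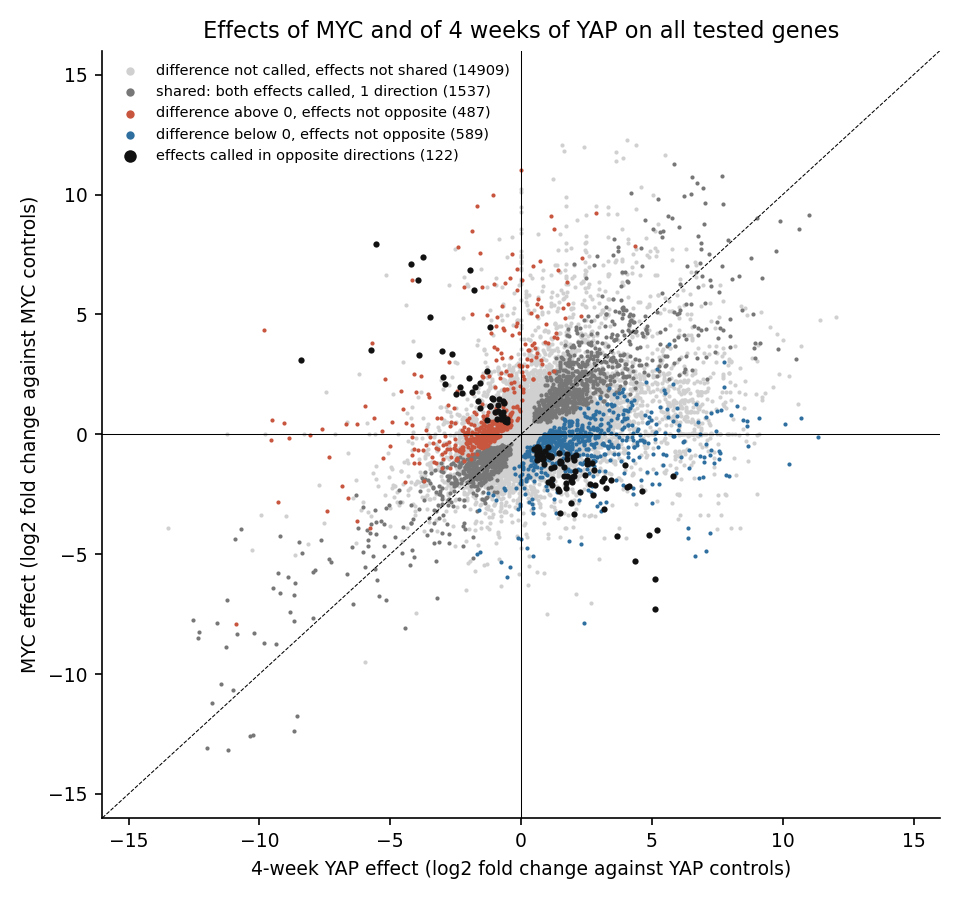
Each point is 1 of 17644 genes, with the 4-week YAP effect on the horizontal and the MYC effect on the vertical axis, both as log2 fold changes over the model's own controls; the dashed line marks equal effects. The 1537 shared genes lie around the dashed line, and the 122 genes with called effects of opposite sign lie at the upper left (45) and lower right (77).

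Of 30 tested genes of the Hippo pathway, TEAD factors included, 13 were called below 0, that is lower under MYC relative to YAP, and 0 above, while 17 were not called. Estimates lay above 0 in 7, and the list's median log2 difference was -1.48 against -0.06 over all genes. The medians of the separate effects were 0.96 for YAP and -0.36 for MYC (0.03 with total-count scaling). Leaving out 1 library gave 6 to 15 such calls, with 6 without MYC control replicate 2 and 8 without either YAP control. Over all tested genes 3.02% were called above 0 and 3.77% below, to be set beside each list count here and below. For the single effects those shares were 9.96% raised and 7.88% lowered by MYC, and 18.4% raised and 15% lowered by YAP.

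Ptpn14 (chr1:189728268-189876695, GRCm38), a phosphatase that binds YAP and holds it back, lay at 4.33 and 4.99 CPM in YAP controls and at 78.7, 82 and 109 in 4-week YAP livers. It stayed at 2.99 and 4.12 CPM in MYC controls and 3.49, 2.64 and 2.92 in MYC livers, so that the gap opened in the YAP model alone. The log2 difference was -4.50 ± 0.33 (adjusted p = 0.000226). Tead1 (chr7:112679318-112906807), a DNA-binding partner of YAP, lay at 24.8 and 29.7 CPM in YAP controls, 331, 153 and 230 in YAP livers, 45.4 and 37.3 in MYC controls and 26.5, 31 and 38.4 in MYC livers, with a log2 difference of -3.49 ± 0.42 (adjusted p = 0.00255). Map4k4, a kinase upstream of LATS, differed in another way, since both models raised it. It lay at 15.9 and 19 CPM in YAP controls against 122, 124 and 141 in YAP livers, and at 35.7 and 34 in MYC controls against 56.2, 64.6 and 83.6 in MYC livers, with a log2 difference of -1.92 ± 0.26 (adjusted p = 0.004). Its rise with MYC was lost without either MYC control (adjusted p = 0.0834 and 0.0813).

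Fat1 (chr8:44935447-45052257), a giant cadherin that signals into the Hippo cascade, moved in opposite directions. YAP livers held 293, 261 and 276 CPM against 117 and 141 in their controls, whereas MYC livers held 45.7, 30.9 and 29.2 against 138 and 142. The 2 control groups overlapped, and neither induced group overlapped any other group. The rise with YAP missed the threshold without YAP control replicate 1 (adjusted p = 0.055). The log2 difference was -3.09 ± 0.30 (adjusted p = 0.000864).

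Genes known to respond to YAP and its relative TAZ were called below 0 in 9 of 24 tested members and above 0 in 0, with a median log2 difference of -2.38. The medians were 1.85 for the YAP effect and -0.19 for the MYC effect (0.18 with total-count scaling). Calls numbered 4 without MYC control replicate 2, 5 without any one of the other 3 controls and 13 without 4-week YAP replicate 2. Cyr61, a secreted matrix protein and a standard YAP reporter, lay at 35 and 49.1 CPM in YAP controls and 144, 73.3 and 136 in YAP livers. In the MYC model it went from 27.6 and 17.9 CPM in controls down to 2.72, 1.6 and 2.52, and the log2 difference was -4.79 ± 0.50 (adjusted p = 0.0014). Its rise with YAP was lost without YAP control replicate 1 (adjusted p = 0.0868).

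F3, tissue factor, the cell-surface starter of coagulation, was called for the MYC side. It lay at 0.888, 0.556 and 0.631 CPM in MYC livers against 3.93 and 5.11 in MYC controls, while YAP livers (10.7, 13.6 and 18.9) overlapped their controls (9.99 and 11.8). Its log2 difference was -3.09 ± 0.47 (adjusted p = 0.00592). Tgfb2, a cytokine of the TGF-beta family with an E-box in the stretch printed above, lay at 1.79 and 1.77 CPM in YAP controls and 22.5, 41.3 and 51 in YAP livers, and between 1.14 and 2.24 CPM in all 5 libraries of the MYC model. The log2 difference was -4.27 ± 0.61 (adjusted p = 0.00463; 0.0699 with limma voom). The reporters Ankrd1 and Ctgf did not pass. Ankrd1 lay at 0.283 and 0.624 CPM in YAP controls, 234, 39.6 and 127 in YAP livers and at most 0.513 CPM in the MYC model, where 1 MYC liver had a count of 0 (adjusted p = 0.0536). Ctgf spread from 17.5 to 412 CPM over the YAP livers, and its log2 difference was -3.57 ± 1.45 (adjusted p = 0.176).

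Bile duct and progenitor genes were lower under MYC relative to YAP in 10 of 25 tested members and higher in 0, with a median log2 difference of -2.24. YAP raised 16 of the 25, while MYC raised 4 and lowered 2. Single leave-outs gave 6 calls (without YAP control replicate 1 or MYC control replicate 2) to 15 (without 4-week YAP replicate 1). Summed over the list, levels ran from 833 to 1010 CPM in YAP controls, 2740 to 6120 in YAP livers, 607 to 679 in MYC controls and 746 to 1380 in MYC livers. In whole liver, more cells of a type and more RNA per cell cannot be told apart.

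Pkhd1 (chr1:20057779-20618064), which encodes fibrocystin of the bile duct cilium, lay at 20.8 and 16.8 CPM in YAP controls and 173, 159 and 315 in YAP livers. MYC livers (12.3, 10.1 and 12.2) lay below their controls (16.9 and 16.6), though the MYC effect did not pass, and the log2 difference was -4.06 ± 0.40 (adjusted p = 0.000957). Pkd2 (chr5:104459450-104505819), a cilium calcium channel, lay at 26.3 and 32.2 CPM against 115, 113 and 117 in the YAP model and at 16 and 18.4 against 11, 6.68 and 9.06 in the MYC model, with a log2 difference of -2.92 ± 0.29 (adjusted p = 0.000957). The 2 groups of induced livers lay on opposite sides of their controls, although the fall with MYC was lost without MYC control replicate 1 (adjusted p = 0.0519) or replicate 2 (0.104) and with total-count scaling (0.0588). Krt8, a keratin of simple epithelia, rose from 140 and 159 CPM to 378, 366 and 479 with YAP and stayed at 98.1, 102 and 104 CPM in MYC livers against 109 and 128 in MYC controls. Its log2 difference was -1.67 ± 0.25 (adjusted p = 0.00563).

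Hes1, a target of Notch signalling, had a log2 difference of -2.96 ± 0.32 (adjusted p = 0.0014). Its fall with MYC was lost without either MYC control (adjusted p = 0.0697 and 0.155) and with total-count scaling (0.125). Sox9, a biliary transcription factor, lay at 29.8 and 29.4 CPM in YAP controls, 84.4, 213 and 290 in YAP livers, 2.91 and 4.42 in MYC controls and 1.07, 0.626 and 1.55 in MYC livers. Its log2 difference of -4.47 ± 0.74 (adjusted p = 0.0108) missed the threshold without YAP control replicate 1 (0.0522), YAP control replicate 2 (0.0539) or MYC control replicate 2 (0.0624).

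Extracellular matrix genes were called below 0 in 10 of 28 and above 0 in 1, with a median log2 difference of -2.39; YAP raised 16 and lowered 0. The calls below 0 numbered 3 without MYC control replicate 2, 4 or 5 without any one of the other controls and 19 without 4-week YAP replicate 1. Lama5, a laminin chain of basement membranes, lay at 3.67 and 6.76 CPM in YAP controls and 146, 146 and 198 in YAP livers, but at 9.06 and 11.3 CPM in MYC controls and 13.9, 11.9 and 32.6 in MYC livers. Its log2 difference was -4.04 ± 0.64 (adjusted p = 0.00882). Itga3, a laminin receptor subunit, lay at 11.3 and 11.4 CPM in YAP controls and 101, 74 and 133 in YAP livers. In the MYC model it went from 9.83 and 9.61 down to 4.79, 1.53 and 1.84, for a log2 difference of -5.00 ± 0.61 (adjusted p = 0.00324). That fall alone was lost without MYC replicate 2 or 3 or either MYC control (adjusted p from 0.0528 to 0.0941). Sparc, a collagen-binding protein, had a log2 difference of -3.39 ± 0.49 (adjusted p = 0.00534).

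The member called above 0 was Thbs1, thrombospondin, which rose in both models. It lay at 3.86 and 5.72 CPM against 19.2, 23.7 and 26.7 with YAP and at 1.71 and 1.37 against 55.5, 56.3 and 30.3 with MYC. The call, at a log2 difference of 2.66 ± 0.46 (adjusted p = 0.0101), was lost without YAP control replicate 2 (0.0547) or MYC control replicate 2 (0.076) and with limma voom (0.108). Stellate cell and fibroblast genes had 0 of 15 called in the difference by edgeR, DESeq2 and limma voom, with 2 at an unadjusted p under 0.05. Their summed level was 295 to 1090 CPM in YAP livers and 347 to 853 CPM in MYC livers, below or across the range of the controls (750 to 950 CPM).

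**Figure D2:**
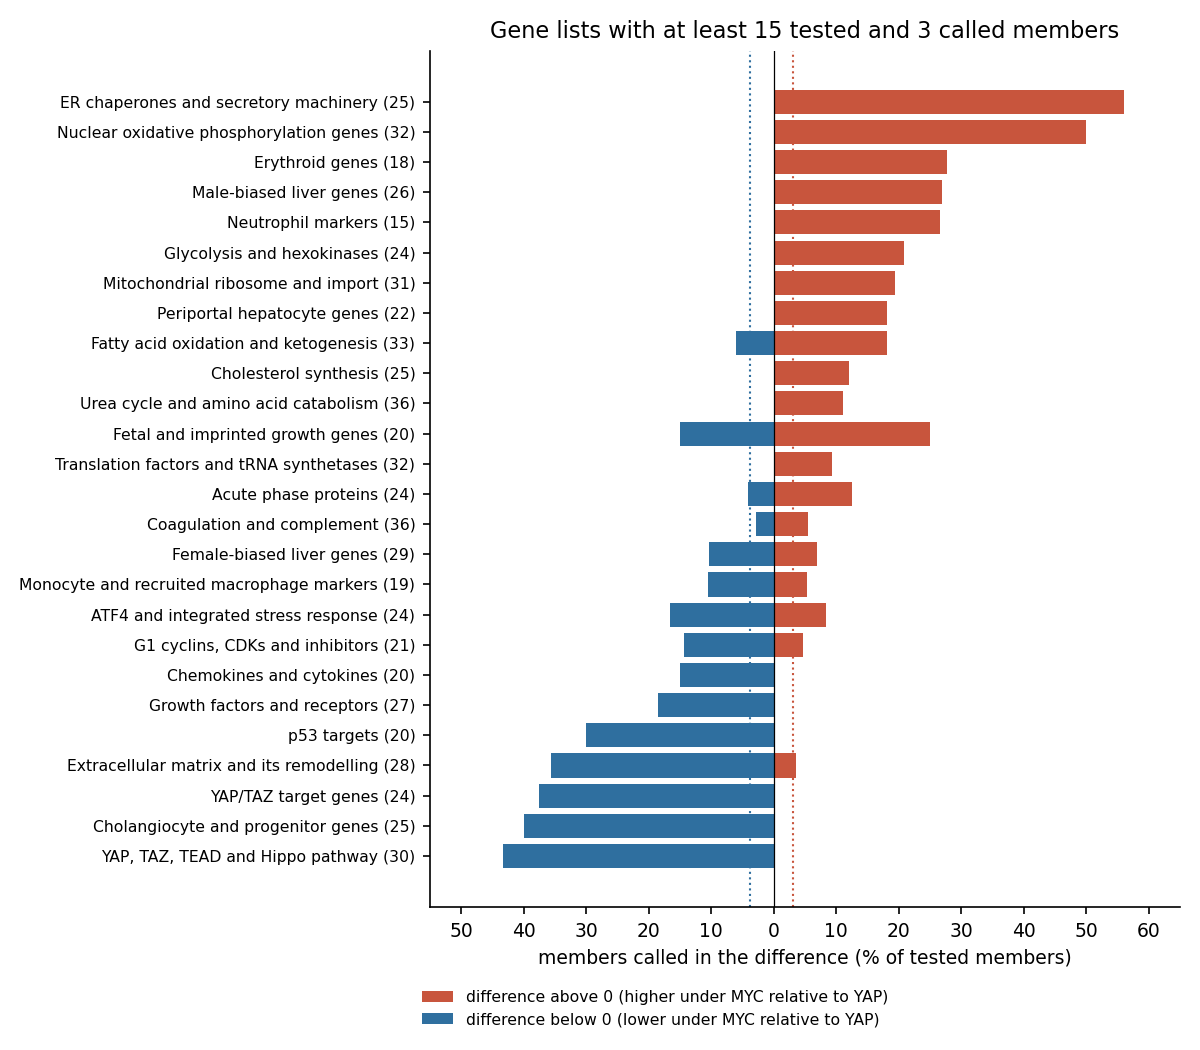
Bars give the share of each list's tested members (number in brackets) called above 0 (right) or below 0 (left) in the difference; lists with at least 15 tested and 3 called members are shown, and dotted lines mark the shares over all 17644 genes, 3.02% and 3.77%. Lists of the Hippo pathway, bile duct, YAP targets and matrix stand at the lower end, and those of the secretory machinery and oxidative phosphorylation at the upper end.

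Growth factors and their receptors were called below 0 in 5 of 27 and above 0 in 0 (2 to 8 on leaving out 1 library, with 2 without 4-week YAP replicate 3 or any 1 control). Pdgfa, a growth factor for stellate cells and fibroblasts, lay at 8.48 and 8 CPM in YAP controls, 13.5, 24.1 and 19.3 in YAP livers, 9.32 and 9.91 in MYC controls and 2.66, 1.88 and 3.33 in MYC livers. All 4 controls lay between 8 and 9.91 CPM with the induced livers on opposite sides of them, for a log2 difference of -3.07 ± 0.44 (adjusted p = 0.00464). The rise with YAP alone was lost without YAP control replicate 1 (adjusted p = 0.0808) or replicate 2 (0.0977). Fgfr2, a receptor of fibroblast growth factors, moved the same way with a log2 difference of -1.87 ± 0.30 (adjusted p = 0.00765). Its rise with YAP was lost without either YAP control (adjusted p = 0.0647 and 0.129) and its fall with MYC without either MYC control (0.0558 and 0.0711). Csf1 (chr3:107741048-107760469), the growth factor of macrophages, lay at 13.8 and 16.9 CPM in YAP controls and 187, 88.8 and 137 in YAP livers, against 13.4 and 12.8 in MYC controls and 17.2, 12.1 and 11.2 in MYC livers. Its log2 difference was -3.12 ± 0.43 (adjusted p = 0.00401). Monocyte and recruited macrophage markers rose in both models, in 16 of 19 with YAP and 12 of 19 with MYC, and 11 were shared. In the difference 1 of the 19 was called above 0 and 2 below. A link of these markers to Csf1 was not tested. The list's summed level was 661 to 742 CPM in YAP livers against 268 and 269 in controls, and 495 to 690 CPM in MYC livers against 152 to 162.

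Targets of p53 were called below 0 in 6 of 20 and above 0 in 0, with 3 calls without YAP control replicate 1 or MYC control replicate 1. Cdkn1a (chr17:29090976-29100727), the cell cycle inhibitor p21, rose in both models. YAP took it from 0.848 and 0.831 CPM to 57.1, 37.1 and 48.6, and MYC from 11.4 and 7.24 CPM to 26.8, 38.7 and 53.7. The induced livers of both models overlapped and their controls did not. The log2 difference was -3.71 ± 0.52 (adjusted p = 0.00443; 0.07 with limma voom). Plk2 and Phlda3, a kinase and an inhibitor of AKT that are both p53 targets, were 10.2 and 13.2 CPM against 59.5, 39.8 and 42.9, and 0.565 and 0.728 CPM against 25.5, 16.5 and 15.6, in the YAP model. In the MYC model Plk2 lay at 14 and 12.4 CPM in controls and 8.11, 6.75 and 4.07 in MYC livers, and Phlda3 at 2.22 and 1.14 against 2.43, 2.85 and 3.04. The log2 differences were -3.09 ± 0.42 (adjusted p = 0.00379) for Plk2 and -4.15 ± 0.56 (adjusted p = 0.00379) for Phlda3. The fall of Plk2 with MYC was lost without MYC replicate 2 or 3 or either MYC control (adjusted p from 0.0624 to 0.149) and with total-count scaling (0.0595).

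**Figure D3:**
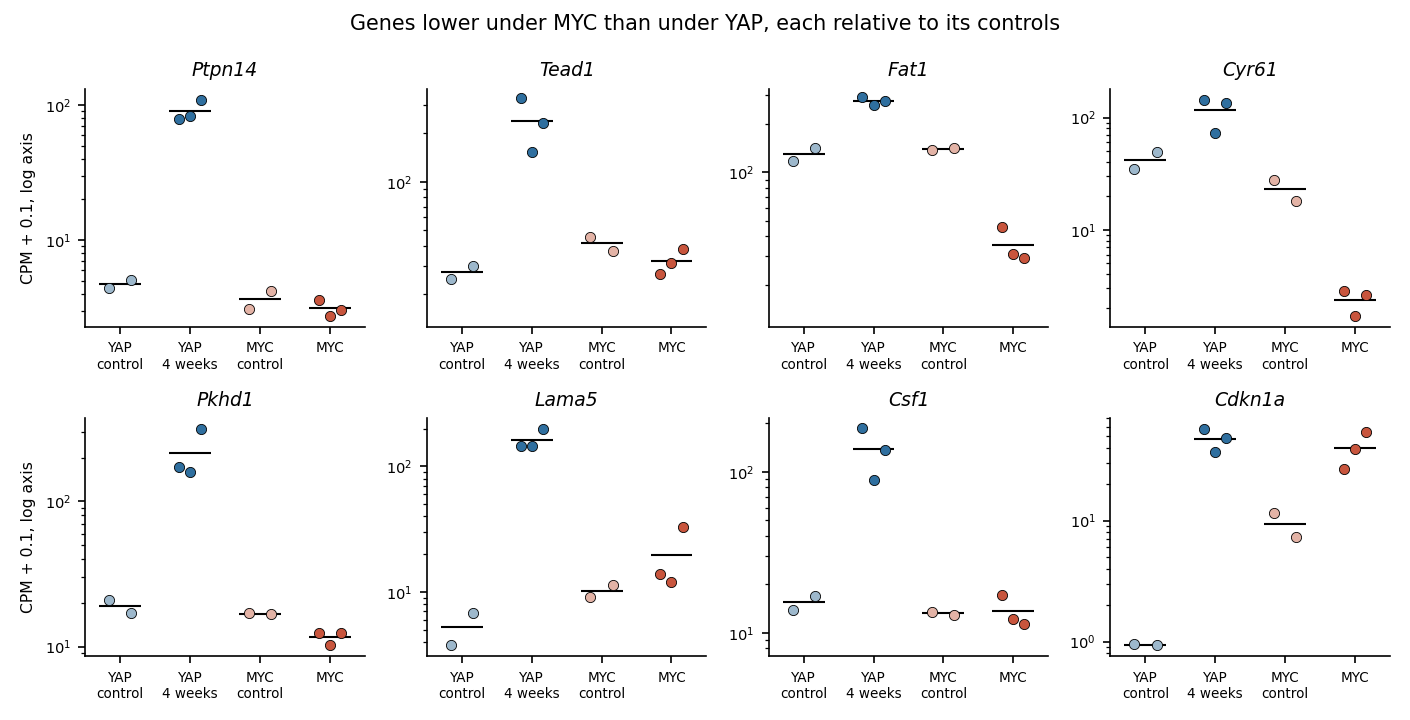
CPM + 0.1 (log axis) of 8 genes called below 0; each point is 1 library and each line a group mean. Ptpn14, Tead1, Pkhd1, Lama5 and Csf1 stand high in the YAP livers alone, Fat1 and Cyr61 also drop in the MYC livers, and Cdkn1a is high in both induced groups with unequal controls.

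On the other side of the difference, the nuclear genes of oxidative phosphorylation were higher under MYC relative to YAP in 16 of 32 tested members and lower in 0, with a median log2 difference of 1.04. All 32 fell with YAP, by a median of -1.12 on the log2 scale, while MYC raised 1 and lowered 1. The part of doxycycline in these falls was not tested. With total-count scaling the YAP median was -0.42 with 13 called falls, the MYC median turned from -0.11 to 0.28, and 8 members were called above 0. The calls were few without single controls: 1 without MYC control replicate 2, 2 without YAP control replicate 2, 4 without either other control, and 5 without 4-week YAP replicate 3, against 25 without 4-week YAP replicate 1. The list's median stayed between 0.91 and 1.16 in all 10.

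Sdhd (chr9:50596357-50603812), a membrane anchor of succinate dehydrogenase, kept its call whichever library was left out. It lay at 147 and 137 CPM in YAP controls and 58, 57.5 and 57.4 in YAP livers, and at 121 and 101 CPM in MYC controls and 183, 166 and 148 in MYC livers. YAP livers lay below and MYC livers above their controls, with a log2 difference of 1.88 ± 0.22 (adjusted p = 0.00212). The rise with MYC (adjusted p = 0.029) missed the threshold without either YAP control, either MYC control, or MYC replicate 1 or 2 (adjusted p from 0.066 to 0.225). Cox7b, a cytochrome c oxidase subunit, lay at 114 and 97.5 CPM in YAP controls, 48, 33.5 and 35.4 in YAP livers, 129 and 122 in MYC controls and 154, 130 and 135 in MYC livers. The log2 difference was 1.59 ± 0.26 (adjusted p = 0.0077; 0.0584 without MYC control replicate 2). Transcripts of the mitochondrial genome had a median difference of 1.49 and 1 of 15 called above 0, against 3.02% of all tested genes. Mitochondrial ribosome and import genes had 6 of 31 called above 0 and 0 below, but 0 without YAP control replicate 1 or either MYC control, 1 without YAP control replicate 2 or 4-week YAP replicate 3, and 3 without 4-week YAP replicate 2. Of the mitochondrial genome transcripts, 9 were called without 4-week YAP replicate 1 and at most 1 without any other library.

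Chaperones and secretory machinery of the endoplasmic reticulum, which fold and export the plasma proteins of hepatocytes, were called above 0 in 14 of 25 and below 0 in 0, with a median log2 difference of 1.12. YAP lowered 20 and MYC 2. With total-count scaling 8 were above and 1 below 0. None passed without MYC control replicate 2 and 2 without MYC control replicate 1, 5 without either YAP control, 7 without 4-week YAP replicate 3, and 9 without 4-week YAP replicate 2 or MYC replicate 2, while the list's median stayed between 1.02 and 1.18. Sdf2l1, a co-chaperone, lay at 73.7 and 58.3 CPM in YAP controls and 19.5, 10.7 and 11.9 in YAP livers, but at 74.1 and 69.8 CPM in MYC controls and 89.3, 82.8 and 62.8 in MYC livers. This gave a log2 difference of 2.36 ± 0.37 (adjusted p = 0.00651; 0.0536 without MYC control replicate 2). Sec61b, a subunit of the protein channel into the endoplasmic reticulum, followed with 2.19 ± 0.33 (adjusted p = 0.00599; 0.0519 without MYC control replicate 2).

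Hepatocyte metabolism gave fewer calls. Over all tested genes 3.02% were called above 0 and 3.77% below, and the pericentral list, with 1 of 22 above, lay near that. Above 0 were 6 of 33 fatty acid oxidation genes (2 were below), 4 of 36 genes of the urea cycle and amino acid breakdown and 4 of 22 periportal genes, with 0, 0 and 1 left without MYC control replicate 2. YAP lowered 22, 27 and 12 of these lists' members and MYC 4, 7 and 3, beside 15% and 7.88% of all tested genes. Glul (chr1:153899944-153909723), which encodes glutamine synthetase and marks the cells next to central veins, was the member of the pericentral list called, 1 of 22. It lay at 869 and 1010 CPM in YAP controls and 53.7, 67.9 and 34.2 in YAP livers, against 386 and 419 CPM in MYC controls and 251, 199 and 216 in MYC livers. Both models lowered it, YAP by more, for a log2 difference of 3.32 ± 0.38 (adjusted p = 0.00212), although the fall with MYC was lost with total-count scaling (adjusted p = 0.161). Among acute phase proteins, 3 of 24 were called above 0 and 1 below. Lbp, which binds bacterial lipopolysaccharide in plasma, lay at 194 and 226 CPM in YAP controls, 105, 93 and 89.7 in YAP livers, 87 and 73 in MYC controls and 259, 267 and 154 in MYC livers. It fell with YAP and rose with MYC, with a log2 difference of 2.64 ± 0.34 (adjusted p = 0.00316). The rise with MYC was lost without MYC control replicate 2 (adjusted p = 0.0571), and the fall with YAP with total-count scaling (0.109). Of 25 tested genes of bile acid synthesis and transport, 1 was called above 0 and 0 below, near the shares over all genes. That member was Abcb11, the bile salt export pump. Abcb11 lay at 719 and 741 CPM against 57.2, 172 and 100 with YAP and at 545 and 487 against 711, 573 and 701 with MYC. Its log2 difference of 3.09 ± 0.53 (adjusted p = 0.00939) was lost without MYC control replicate 1 (0.0569) or replicate 2 (0.073).

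Among glycolysis genes 5 of 24 were called above 0 and 0 below (0 without YAP control replicate 2 or either MYC control, 2 without 4-week YAP replicate 3, and 3 without MYC replicate 2 or 3). Hk1, a hexokinase that adult hepatocytes hold at low levels, lay between 8.01 and 14.2 CPM in the YAP model, at 7.35 and 6.94 in MYC controls and at 42.1, 97.2 and 47.6 in MYC livers. The log2 difference of 2.74 ± 0.49 (adjusted p = 0.0123) was lost without YAP control replicate 2 (0.0571), MYC control replicate 1 (0.0616) or MYC control replicate 2 (0.08).

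Fetal liver and imprinted growth genes split between the oncogenes, with 5 of 20 called above and 3 below 0. Without MYC control replicate 2 these were 3 and 0, and without either YAP control the calls below 0 were 0. Afp (chr5:90490737-90508907), the albumin-like plasma protein of fetal liver, lay between 3.02 and 20.1 CPM in the YAP model and at 11.4 and 11.6 in MYC controls. MYC livers held 2500, 6240 and 4250 CPM, and the log2 difference was 7.30 ± 1.06 (adjusted p = 0.00602; 0.0561 without MYC control replicate 2). Gpc3, a surface proteoglycan also known from fetal liver and liver cancer, had the reverse pattern. It lay at 1.32 and 1.14 CPM in YAP controls and 1600, 146 and 285 in YAP livers, and stayed between 4.19 and 8.11 CPM in the MYC model. The log2 difference of -8.41 ± 1.44 (adjusted p = 0.0137) was lost without YAP control replicate 1 (0.066), YAP control replicate 2 (0.0676) or MYC control replicate 2 (0.0534) and with limma voom (0.107).

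The noncoding RNAs of the imprinted Dlk1-Meg3 region moved together. Meg3 (chr12:109541001-109571726) lay at 13.5 and 7.07 CPM in YAP controls, 1.96, 3.18 and 2.85 in YAP livers, 1.45 and 1.14 in MYC controls and 81.5, 161 and 212 in MYC livers, with a log2 difference of 8.81 ± 0.69 (adjusted p = 0.000552). Rian (chr12:109603940-109661716) lay at 15.4 and 6.44, then 0.885, 0.569 and 0.67 CPM in the YAP model, and at 0.94 and 1.07, then 45.8, 116 and 103 CPM in the MYC model, with a log2 difference of 10.39 ± 0.78 (adjusted p = 0.00053). In both genes the MYC livers were highest and the YAP livers lay below YAP controls, although the fall of Meg3 with YAP was lost without YAP control replicate 1 (adjusted p = 0.0712) and with total-count scaling (0.0634). Mirg (chr12:109729764-109749460) reached 5.45, 15.9 and 15.3 CPM in MYC livers and at most 1.7 CPM elsewhere, with a log2 difference of 6.89 ± 1.06 (adjusted p = 0.00602; 0.0578 with limma voom).

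Erythroid genes, read by blood-forming cells that fetal liver houses, were called above 0 in 5 of 18 and below 0 in 0, with a median log2 difference of 4 (1 call without either MYC control, 2 without either YAP control or 4-week YAP replicate 3, 3 without 4-week YAP replicate 1 or MYC replicate 3, and 8 without MYC replicate 1). MYC raised 13 and YAP 1. The summed level was 63.3 to 103 CPM in the YAP model, 121 to 154 in MYC controls and 765 to 3480 in MYC livers. Klf1, the master regulator of red cell genes, lay between 1.62 and 5.09 CPM in the YAP model, at 2.56 and 1.22 in MYC controls and at 34, 98 and 36.2 in MYC livers, with a log2 difference of 5.81 ± 0.81 (adjusted p = 0.00541). Gata1, its partner in the erythroid lineage, had 0 counts in both MYC controls and 10.6, 29.4 and 14.3 CPM in MYC livers, at least 74.6-fold higher than a floor of 3 counts per library. Its call in the difference (adjusted p = 0.0257) was lost without YAP control replicate 1 (1), MYC control replicate 1 (0.0647) or MYC control replicate 2 (0.0811) and with limma voom (0.102). Neutrophil markers rose in both models, in 15 of 15 with MYC and 13 of 15 with YAP, and 4 were called above 0 (1 without MYC control replicate 2, 2 without MYC control replicate 1 or YAP control replicate 2). Their summed level did not follow these counts in the YAP model, with 394 to 1280 CPM in controls and 386 to 667 in YAP livers, against 13.8 to 14.9 in MYC controls and 916 to 1810 in MYC livers. Lcn2, a siderophore-binding protein that hepatocytes also make, held much of that sum in the YAP model, at 380 and 1260 CPM in controls and 251, 567 and 463 in YAP livers. Prtn3, a neutrophil granule protease, lay between 3.98 and 6.65 CPM in all 5 YAP-model libraries, at 0.684 and 1.22 CPM in MYC controls and at 14.5, 24 and 13.2 in MYC livers, with a log2 difference of 4.52 ± 0.54 (adjusted p = 0.00215). How far the blood cell content of the livers enters the differences of other genes was not tested.

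**Figure D4:**
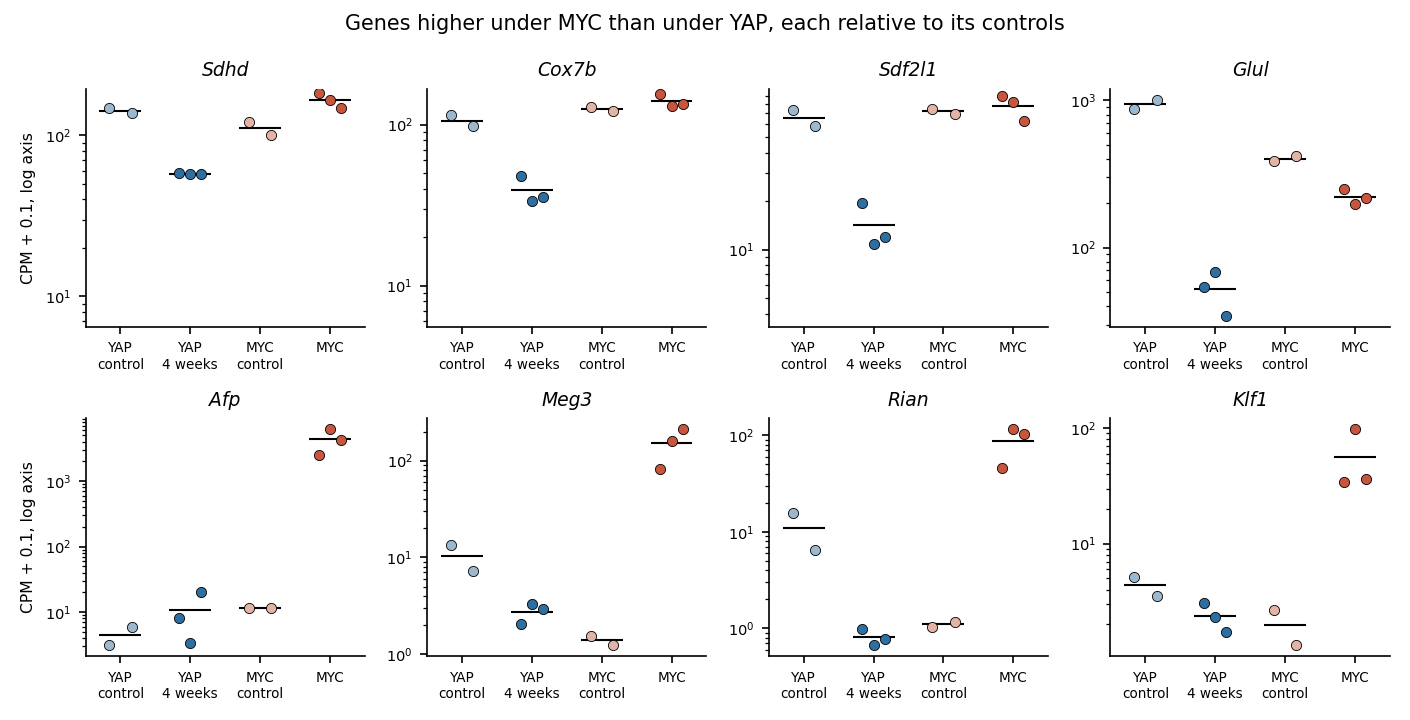
CPM + 0.1 (log axis) of 8 genes called above 0; each point is 1 library and each line a group mean. Sdhd, Cox7b, Sdf2l1 and Glul drop in the YAP livers, while Afp, Meg3, Rian and Klf1 stand high in the MYC livers.

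Of the 122 genes with called effects of opposite sign, 45 rose with MYC and fell with YAP. Cyp4a12b (chr4:115411624-115439034), a fatty acid hydroxylase that male mouse liver expresses more than female, lay at 46.3 and 39.4 CPM in YAP controls and 0.0632, 0.114 and 0.167 in YAP livers, against 5.22 and 4.42 in MYC controls and 25.5, 44.8 and 53.6 in MYC livers, for a log2 difference of 11.52 ± 0.56 (adjusted p = 1.08e-05). Its YAP fall runs with the sex marked by Xist and Ddx3y and cannot be told apart from it; reads of the similar copy Cyp4a12a may be split between both. Tff3 (chr17:31125306-31129646), a small secreted peptide of mucous epithelia, lay at 11.5 and 13.1 CPM in YAP controls, 0, 0.682 and 1.23 in YAP livers, 0.598 and 0.61 in MYC controls and 35.1, 120 and 100 in MYC livers. The log2 difference was 11.33 ± 1.25 (adjusted p = 0.00298). Cdhr2, a cadherin of microvilli, lay at 19, 38 and 40.1 CPM in MYC livers and at most 3.02 CPM elsewhere, with a log2 difference of 8.38 ± 1.08 (adjusted p = 0.00379), and its fall with YAP was lost without YAP control replicate 1 (0.192). Acpp, a prostatic acid phosphatase, lay at 13.9 and 14.7 CPM in YAP controls and at most 2.81 CPM in the other 8 libraries, and its log2 difference was 7.21 ± 0.78 (adjusted p = 0.00142). Its rise with MYC, from 0.171 and 0.229 CPM to 0.888, 2.43 and 2.81, was lost without either MYC control (adjusted p = 0.0806 and 0.0649).

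The other 77 rose with YAP and fell with MYC. Col4a5 (chrX:141475385-141689234), a basement membrane collagen chain, lay at 3.39 and 2.18 CPM in YAP controls, 37.3, 49.5 and 51.4 in YAP livers, 10.3 and 12.5 in MYC controls and 4.32, 1.25 and 1.78 in MYC livers. This gave a log2 difference of -6.24 ± 0.65 (adjusted p = 0.0014), and the fall with MYC missed the threshold without MYC control replicate 2 (0.0666). Cx3cr1 (chr9:119901616-120069879), the fractalkine receptor of monocytes and macrophages, lay at 0.848 and 1.14, then 17.6, 27.1 and 29 CPM in the YAP model, and at 4.36 and 5.49, then 0.474, 0.904 and 1.49 CPM in the MYC model. Its log2 difference of -6.97 ± 0.63 (adjusted p = 0.0007) lay far from the median of the monocyte and macrophage list it belongs to, 0.09 (-0.18 with total-count scaling). Its fall with MYC missed the threshold without MYC control replicate 2 (adjusted p = 0.0514). Fgf21, a hormone of fasting and stress whose promoter stretch holds an E-box, lay at 20.5 and 18.5 CPM in MYC controls and 0.533, 0.278 and 0.0573 in MYC livers. In the YAP model it had a count of 0 and 0.104 CPM in controls and 2.66, 1.08 and 2.34 CPM in YAP livers, and its adjusted p was 0.00139.

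Among the changes both models shared were rises of cell division genes and falls of hepatocyte regulators. Of 32 DNA replication genes, MYC raised 22 and YAP 15, and 11 were shared rises. Of 30 genes of mitosis, YAP raised 27 and MYC 9, all 9 of them shared. The difference called 0 of 32 and 0 of 30 by edgeR, with 5 and 4 at an unadjusted p under 0.05, 2 and 2 by DESeq2 and 1 and 0 by limma voom. The mitosis median was 3.87 for YAP and 2.23 for MYC. Its median log2 difference was -1.63, with estimates above 0 in 4 of 30, and stayed between -2.22 and -0.82 on leaving out 1 library. Summed mitosis levels ran from 31.1 to 41.8 CPM in YAP controls and 261 to 265 in MYC controls. They ran from 197 to 982 CPM in YAP livers and 826 to 3230 in MYC livers. Mki67, a mark of cycling cells, lay at 9.7 and 6.03 CPM in YAP controls, 343, 67.7 and 102 in YAP livers, 91.8 and 86.5 in MYC controls and 429, 1960 and 837 in MYC livers. MYC controls overlapped the YAP livers, and the 95% interval of the log2 difference reached from -3.34 to 1.64. Its estimate, -0.85, turned above 0 without 4-week YAP replicate 1.

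Hepatocyte transcription factors fell with MYC in 8 of 22 and with YAP in 8 of 22, and the same 8 were shared. Over all tested genes 7.88% fell with MYC and 15% with YAP. By edgeR, DESeq2 and limma voom, 0 of 22 were called in the difference, and 2 had an unadjusted p under 0.05. With total-count scaling 4 fell with MYC, and 3 fell and 3 rose with YAP. Cholesterol synthesis fell with YAP in 21 of 25 and with MYC in 15 of 25, with 14 shared falls and 3 members called above 0 (0 without YAP control replicate 2, 4-week YAP replicate 3 or either MYC control, and 1 without YAP control replicate 1, MYC replicate 2 or MYC replicate 3). Elovl3, a fatty acid elongase with higher levels in male liver, lay at 85 and 73.9 CPM in YAP controls and 52.4 and 83 in MYC controls. All 6 induced livers held at most 0.0696 CPM, and 3 of them had a count of 0. The fall of Elovl3 with YAP runs with the sex marked by Xist and Ddx3y and cannot be told apart from it.

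H19 and Igf2, a noncoding RNA and a growth factor from 1 imprinted region, rose in both models. H19 lay at 1.6 and 2.49 CPM in YAP controls and 38.1, 547 and 688 in YAP livers, and at 10.9 and 12.9 CPM in MYC controls and 17300, 17000 and 27400 in MYC livers. Igf2 lay at 1.51 and 1.97, then 23.6, 171 and 286 CPM with YAP, and at 8.04 and 7.17, then 8540, 13300 and 16800 CPM with MYC. The MYC livers stood far above the YAP livers in both genes, but the YAP livers spread more than 10-fold. The log2 differences of 3.06 ± 1.33 (adjusted p = 0.197) and 4.21 ± 1.21 (adjusted p = 0.0701) did not pass. Without 4-week YAP replicate 1, the lowest YAP liver in both genes, they did (adjusted p = 0.0106 for H19 and 0.00337 for Igf2), and with DESeq2 Igf2 passed as well (0.000655).

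Genes for ribosome production and nucleotide synthesis, processes textbooks tie to MYC, gave few calls in the difference. In the MYC effect, 6 of 36 ribosome biogenesis genes rose and 0 fell, and 11 of 33 nucleotide synthesis genes rose and 2 fell. In the YAP effect 8 and 5 rose and 3 and 4 fell. Over all tested genes, 9.96% rose with MYC and 18.4% with YAP. The median log2 differences of both lists were 0.17 and 0.65 (-0.15 and 0.32 with total-count scaling). In the difference 1 of 36 ribosome biogenesis genes, 0 of 33 nucleotide synthesis genes and 0 of 30 cytosolic ribosomal protein genes were called, with 4, 10 and 6 at an unadjusted p under 0.05. DESeq2 called 2, 3 and 4 and limma voom 1, 0 and 0. Ribosomal protein genes rose with MYC in 9 of 30 and with YAP in 0, a median difference of 0.29 that turned to -0.03 with total-count scaling, where 23 rose with MYC and 27 with YAP. Npm1, a nucleolar chaperone, lay at 154 and 130 CPM in YAP controls, 253, 255 and 266 in YAP livers, 140 and 133 in MYC controls and 313, 341 and 256 in MYC livers. The 95% interval of its log2 difference reached from -0.25 to 0.84, within 2-fold.

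A missed call does not show equal effects. Of the 1537 shared genes, the 95% interval of the difference lay within 2-fold in 394 (25.6%). Among the 1164 with at least 1 CPM in each group mean it did so in 390 (33.5%). The median width of the interval over shared genes was 2 on the log2 scale.

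**Figure D5:**
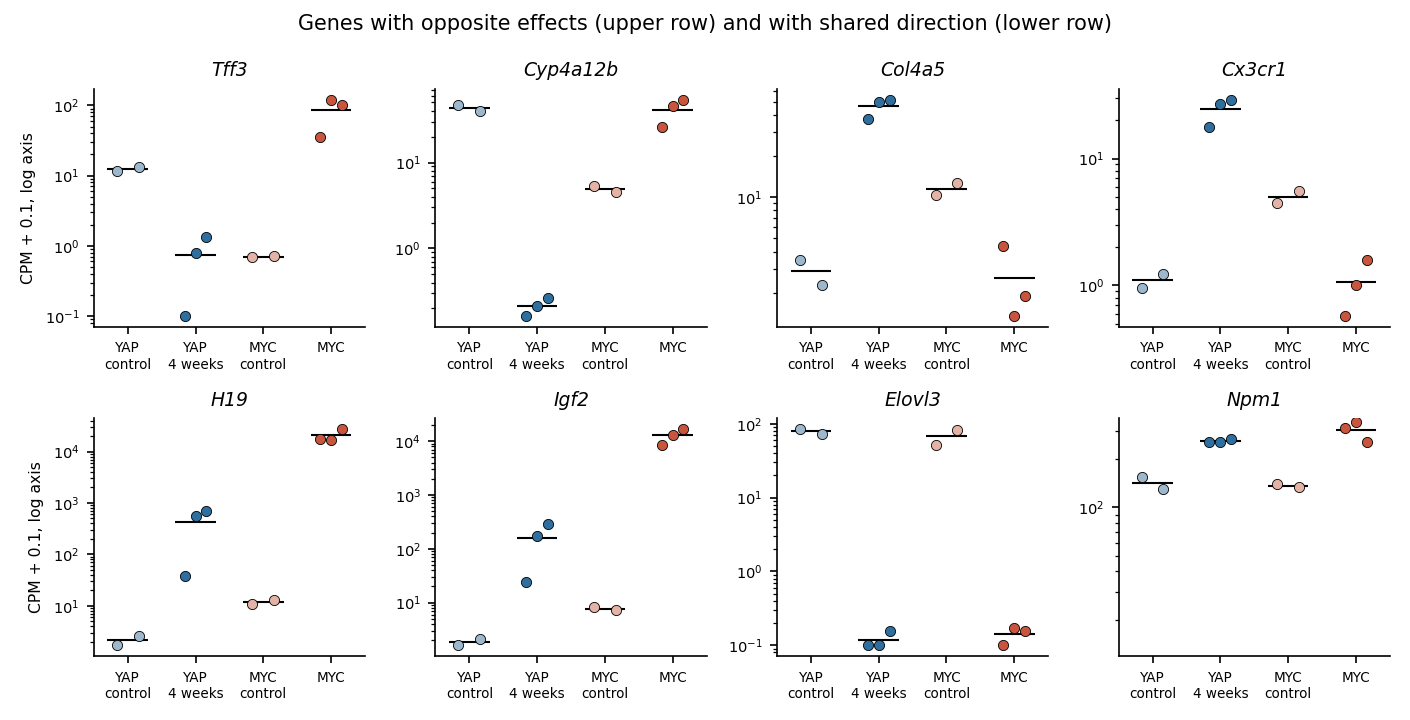
CPM + 0.1 (log axis) of 4 genes with called effects of opposite sign (upper row) and 4 genes that both models moved one way (lower row); each point is 1 library and each line a group mean. Tff3 and Cyp4a12b are high and Col4a5 and Cx3cr1 low in MYC livers against MYC controls, with the reverse order in the YAP model, while H19, Igf2 and Npm1 rise and Elovl3 falls in both induced groups.

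Genes known to differ between the sexes were among the largest differences. Of 26 male-biased liver genes 7 were called above 0 and 0 below (3 without either MYC control, 4 without YAP control replicate 2), YAP lowered 25 and MYC 21, and 15 were shared falls. Sult5a1, a sulfotransferase of that list, lay at 14.4 and 22.1 CPM in YAP controls, 0.0632, 0.0569 and 0.167 in YAP livers, 9.92 and 8.08 in MYC controls and 0.888, 0.835 and 1.2 in MYC livers, with a log2 difference of 4.24 ± 0.60 (adjusted p = 0.0046). In the MYC model, where all 5 libraries held Ddx3y and little Xist, the fall is measured within 1 pattern of sex markers. In the YAP model, falls of male-biased and rises of female-biased genes cannot be told apart from sex. Of 29 female-biased genes, 2 were called above 0 and 3 below, beside 3.02% and 3.77% of all tested genes. Their median log2 difference was -1.69, and YAP raised 14 and MYC 10. Without YAP control replicate 1, 0 were above 0, without YAP control replicate 2, 4-week YAP replicate 3 or either MYC control 1, and the calls below 0 reached 6 without 4-week YAP replicate 1 and 7 without MYC replicate 1. Cyp3a16, a cytochrome P450 called above 0, lay at 66.8, 97.9 and 35.3 CPM in MYC livers and at most 1.7 CPM elsewhere, with a log2 difference of 7.66 ± 0.98 (adjusted p = 0.004; 0.051 without YAP control replicate 1). Fmo2, a flavin monooxygenase called below 0, lay at 6.31 and 7.79 CPM in YAP controls, 166, 154 and 172 in YAP livers, 20.9 and 22.9 in MYC controls and 35.3, 17.7 and 10.8 in MYC livers. Its log2 difference was -4.58 ± 0.58 (adjusted p = 0.00379).

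Rprl2 (chr3:22251374-22251663) and Rprl3 (chr8:3803069-3803358), annotated as ribozymes, lay at 14.6 and 15.3 and at 440 and 533 CPM in YAP controls and at most 0.0558 and 1.4 CPM in YAP livers. In the MYC model they lay between 11.6 and 21.3 and between 383 and 673 CPM. The log2 differences were 9.55 ± 0.62 (adjusted p = 9.1e-05) for Rprl2 and 10.10 ± 0.81 (adjusted p = 0.000552) for Rprl3; they belong to a family of near-identical RNA copies, so the split of reads between copies is uncertain. Without genes on X and Y and the listed sex-biased genes, 1146 of 17066 genes were called in the difference. In the YAP model sex and induction go together for every gene, so this count does not tell them apart.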

How the data were processed

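RNA of 12 mouse livers was sequenced, and 10 libraries enter this comparison. The deposited values are raw counts per gene, made by the authors. The submitters' processing notes name the build GRCm38 and, without roles, DESeq2 1.20.0, featureCounts 1.6.3, HISAT2 2.1.0 and Trim Galore 0.4.1. The use of strand, the treatment of multimapping reads and the annotation release are not given in the sources used here. Symbols are those of the deposited counts, and positions came from matching them to gene names in GENCODE vM21. This gave coordinates for 17011 of the tested genes (96.4%). Among the listed symbols, 27 read as dates and held at most 0.159% of a library's counts.

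Counts were filtered with filterByExpr, scaled by trimmed means (TMM) and fitted with edgeR 4.0.16 (R 4.3.3; robust quasi-likelihood, 4 group means, 6 residual degrees of freedom, biological coefficient of variation 31.5%). The contrast was (MYC - MYC control) - (4-week YAP - YAP control), with Benjamini-Hochberg adjustment over 17644 genes and a threshold of 0.05. A shared gene was called in both effects in 1 direction and not in the difference. Intervals are 95%. Bounds against 0 counts use a floor of 3 counts per library and cover counting error only. The fit was tested on simulated data with known differences. It called 1 of 50 genes at a log2 difference of 1, 19 of 50 at 2, 34 of 50 at 3 and 39 of 50 at 4. In this simulation large differences were missed as well as small ones. It planted differences in fewer genes than were called in the real data, so its rates need not hold there.

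Named genes needed at least 10 CPM in the highest group mean and a symbol that is no gene model's. They were the 12 largest called differences each way, the 8 opposite and 8 shared genes each way with the largest smaller effect, up to 4 members of each list with the smallest p in the difference (without the minimum), and a fixed set of markers. The text takes examples from these, preferring genes that kept their call with any library left out. The members and lists were chosen with earlier results of these data known. The alternatives were DESeq2 1.42.0, limma 3.58.1 voom, other scalings and filters, all 12 libraries, a replicate block, a 2-fold minimum and leaving out each library. Leaving out both libraries that stood apart, leaving out sex-linked genes and a minimum of 1 CPM were added after seeing the data. The 2-week YAP livers were left out because the comparison concerns 4 weeks.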

Additional observations from a re-analysis of the deposited data

How the results depend on the processing

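All 1198 called differences kept their sign under each scaling, tool, filter and leave-out in which they were tested (994 of 1198 with the stricter filter). Since they were chosen in the main fit of the same libraries, this is no independent check. With DESeq2, 2369 genes were called (1136 above and 1233 below 0), and with limma voom 434 below 0. Total-count scaling gave 268 above and 1159 below 0, 2522 shared genes and 601 within 2-fold, and turned the log2 difference of Npm1 to -0.04. A 2-fold minimum left 80 opposite genes and 87 within 2-fold. Over the 10 leave-outs, calls ranged from 235 to 1904 (72 to 841 above and 163 to 1063 below 0), the MYC effect from 711 to 4189, the YAP effect from 3254 to 6265, shared genes from 424 to 2060, opposite genes from 23 to 198 and those within 2-fold from 48 to 681. Leaving out both libraries that stood apart, added after seeing the data, gave 3045 calls (1258 above and 1787 below 0), 5620 in the MYC effect, 2529 shared, 355 opposite and 1067 within 2-fold. The cause of these shifts was not tested. The other counts lay within 1.5 times the reported ones. The replicate block gave 1021 calls (456 above and 565 below 0). The replicate numbers did not pair the samples, since deviations of 13 same-numbered pairs correlated between -0.14 and 0.11, with 1 over 0.1. Promoter motif shares, and their alternative with at least 10 CPM in the highest group mean, were computed but are void because 67.4% of tested genes had a promoter. With 2 controls per model and 1 replicate dropped, the lone control is assumed to vary like the other groups, and differences of small size cannot be resolved at this number of livers.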
